A study of Arabidopsis thaliana with 48 samples.

Results

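WRKY transcription factors of groups IIb, IIc, IId and IIe were followed in Arabidopsis leaves during the first minutes of excess light. The set was chosen by family membership and holds 36 of the 32833 genes listed, namely 8 of group IIb, 14 of group IIc, 7 of group IId and 7 of group IIe. Members were found by locus identifier and no expression value was used to pick them. Wild type plants (Columbia ecotype, WT) and rbohD knockout plants, which lack the NADPH oxidase that produces superoxide at the cell surface, were grown in short days and used at an age of 4 to 5 weeks. A single leaf (local leaf) was exposed to light of 2000 µmol per square metre and second for 0, 2, 4 or 8 min, and that leaf and a distant leaf that received no excess light (systemic leaf) were frozen at once. Plants sampled at 0 min served as controls, and there were 3 replicates in each of the 16 groups of genotype, leaf and time, or 48 libraries. Each replicate was RNA from leaves pooled over many plants, so variation between plants was averaged before sequencing. A transcript level here is that of a whole leaf, in which fewer cells of a type and less RNA per cell cannot be told apart.

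WRKY proteins bind DNA through a domain that starts with a conserved signature and ends in a zinc finger, and their best known target is the W box, a short element with the core TTGAC. Members act as activators or repressors of genes for immunity, leaf senescence, nutrient uptake and the response to abiotic stress, and many WRKY promoters hold W boxes themselves. Group II members have a single WRKY domain. Group IId proteins also carry a domain that binds calmodulin, the calcium sensor, and group IIe members WRKY22 and WRKY29 are known as outputs of the MAP kinase cascade that flagellin, a bacterial protein, sets off.

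The coding sequence of the WRKY signature is shown for the 8 members on which most of the results turn, because a single codon sets WRKY50 and WRKY51 apart from all other members. The 21 bases are given from the RefSeq coding sequences (assembly TAIR10.1), with the sixth codon in capitals.
WRKY50 (AT5G26170, IIc): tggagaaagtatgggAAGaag
WRKY51 (AT5G64810, IIc): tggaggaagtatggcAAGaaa
WRKY48 (AT5G49520, IIc): tggagaaaatacggcCAAaaa
WRKY57 (AT1G69310, IIc): tggcgtaaatatggaCAAaaa
WRKY47 (AT4G01720, IIb): tggagaaaatacggtCAGaaa
WRKY15 (AT2G23320, IId): tggaggaaatacggaCAAaaa
WRKY22 (AT4G01250, IIe): tggcgaaagtacggaCAGaaa
WRKY27 (AT5G52830, IIe): tggcgtaaatacggtCAAaaa
The signature was found in all 36 members. In 34 of them the sixth codon was CAA or CAG, which encode glutamine, and in WRKY50 and WRKY51 it was AAG, which encodes lysine.

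The 250 bases before the annotated start are shown for WRKY50 and WRKY51, the transcripts with the largest rises of the set, and for WRKY15 and WRKY17, a pair of group IId members that hold W boxes there. Capitals mark the W boxes TTGACC and TTGACT, which were searched on both strands and do not overlap one another. Sequences are those of RefSeq (TAIR10.1), written 5′ to 3′ on the strand of the gene.
WRKY50, chr5:9148392-9148641, minus strand: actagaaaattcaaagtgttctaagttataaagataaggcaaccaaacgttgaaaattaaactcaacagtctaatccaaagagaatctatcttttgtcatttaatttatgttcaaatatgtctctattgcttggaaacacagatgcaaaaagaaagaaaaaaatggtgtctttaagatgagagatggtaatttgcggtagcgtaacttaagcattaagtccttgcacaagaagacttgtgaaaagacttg
WRKY51, chr5:25907997-25908246, plus strand: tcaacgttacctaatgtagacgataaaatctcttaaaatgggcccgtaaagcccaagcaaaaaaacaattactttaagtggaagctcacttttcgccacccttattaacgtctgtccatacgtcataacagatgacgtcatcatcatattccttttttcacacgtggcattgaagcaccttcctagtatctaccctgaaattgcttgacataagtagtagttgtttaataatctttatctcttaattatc
WRKY15, chr2:9924636-9924885, plus strand: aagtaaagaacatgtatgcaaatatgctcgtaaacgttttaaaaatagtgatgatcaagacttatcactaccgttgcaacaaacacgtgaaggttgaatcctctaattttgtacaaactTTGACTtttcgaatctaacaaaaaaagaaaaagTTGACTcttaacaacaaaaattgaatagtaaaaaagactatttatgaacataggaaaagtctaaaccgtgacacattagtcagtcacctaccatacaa
WRKY17, chr2:10439470-10439719, minus strand: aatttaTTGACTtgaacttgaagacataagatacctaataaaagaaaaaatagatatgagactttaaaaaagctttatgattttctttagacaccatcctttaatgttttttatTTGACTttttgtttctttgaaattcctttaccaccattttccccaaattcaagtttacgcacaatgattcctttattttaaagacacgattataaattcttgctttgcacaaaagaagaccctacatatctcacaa
In this window 11 of the 36 members held a W box, or 30.6%, beside 28.4% of the 27443 promoters of the same length. A pair of W boxes was present in WRKY15, WRKY17, WRKY45 and WRKY29. WRKY50, WRKY51, WRKY7 and WRKY27 had neither TTGACC nor TTGACT within this window. The core TTGAC followed by another base was not counted, although WRKY51 holds it as ttgaca. The element CGCGTT, a rapid stress response element, was in the window of 0 of the 36 members and in 2.59% of all promoters, and the heat shock element GAANNTTC was in 5 members and in 9.55% of all promoters.

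Depth ran from 13412657 to 28675623 reads per library, of which the top 10 genes made up 10.6% to 15.3%. RBOHD, the gene disrupted in the mutant, was listed at 1269 to 2153 normalized counts in WT local leaves and 1096 to 1961 in WT systemic leaves, and at 337 to 606 and 398 to 697 in the corresponding rbohD leaves, so every rbohD library was below every WT library although reads remained. The leaf markers RBCS1A, RBCS3B, LHCB1.3 and LHCA1 were at 68721 normalized counts or more in every library. Among the markers of other organs, the flower gene AG was at 4.42 to 37.7, AP3 at 7.34 or less, the seed gene CRA1 at 30.1 or less, the root gene IRT1 at 4.42 or less and the root gene PYK10 at 7.34 to 303. The 4 tables were normalized separately and each genotype came from its own experiment, so levels are given side by side across them and are not tested. Normalized counts summed to 2.01e+07 to 2.48e+07 in WT libraries and to 1.53e+07 to 1.66e+07 in rbohD libraries. A transcript with an equal share of the reads is therefore listed lower in rbohD, and levels below are not corrected for this. Genotype and experiment cannot be told apart.

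A transcript was tested where at least 3 of the 12 libraries of a leaf and genotype had 10 normalized counts or more. This held for 22 members in WT local leaves, for 21 members in WT systemic and rbohD local leaves alike, and for 20 members in rbohD systemic leaves. The tested members were WRKY6, WRKY42 and WRKY47 of group IIb, WRKY8, WRKY13, WRKY23, WRKY28, WRKY45, WRKY48, WRKY50, WRKY51 and WRKY57 of group IIc, WRKY7, WRKY11, WRKY15, WRKY17, WRKY21 and WRKY39 of group IId, and WRKY22, WRKY27, WRKY29 and WRKY69 of group IIe. WRKY28 was not tested in rbohD systemic leaves and WRKY29 only in WT local leaves. The other 14 members had at most 17 reads in any library and were not tested. They were WRKY9, WRKY31, WRKY36, WRKY61 and WRKY72 of group IIb, WRKY12, WRKY43, WRKY56, WRKY71 and WRKY75 of group IIc, WRKY74 of group IId, and WRKY14, WRKY35 and WRKY65 of group IIe. WRKY75, an activator of phosphate starvation genes, and WRKY12, a regulator of secondary cell walls in stems, were among them, with no read in 34 libraries and in 2 libraries respectively. WRKY61 and WRKY56 had no read in any of the 48 libraries.

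WRKY11, WRKY15 and WRKY17 of group IId had the highest levels of the set in the exposed WT leaf before light. Per kilobase of exon, in WT local leaves at 0 min, WRKY11 was at 335 normalized counts, WRKY15 at 236 and WRKY17 at 164, followed by WRKY50 at 133 and WRKY21 at 115. In rbohD local leaves at 0 min the level per kilobase was 330 for WRKY11, 156 for WRKY15, 82.8 for WRKY17, 32.3 for WRKY50 and 76.9 for WRKY21. WRKY11 thus led in both, and WRKY50 was below WRKY21 in rbohD.

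In the exposed WT leaf most tested members changed within 2 min of light. There 13 transcripts rose and 1 fell at 2 min, tested with limma at a Benjamini-Hochberg adjusted p of 0.05, while 66.9% of all genes changed (33.4% rose and 33.5% fell). At 4 min 4 members rose and 1 fell, beside 23.8% of all genes changed (13% up and 10.8% down), and at 8 min 9 rose and 1 fell, beside 45.4% (22.9% up and 22.6% down). The share of members that changed was 63.6%, 22.7% and 45.5%, near the background. On the deposited scale the changes of members were mostly rises while those of all genes were split about evenly. In the WT systemic leaf 9 members rose and 1 fell at 2 min, beside 60.3% of all genes changed (30.4% up and 29.9% down). At 4 min 4 rose and 1 fell, beside 27.9% (13.9% up and 14.1% down), and at 8 min 13 of 21 rose and none fell, beside 44.5% (21.8% up and 22.6% down). With each library rescaled to one total, the exposed leaf kept its counts, the systemic leaf had 9 rises and 0 falls at 2 min, 7 and 1 at 4 min and 15 and 0 at 8 min, and the median of all genes moved up by 0.17 in the exposed leaf at 2 min and by 0.11 and 0.13 in the systemic leaf at 2 and 8 min on the log2 scale. The even split of all genes did not hold throughout after rescaling. Rises were then 66%, 50% and 54% of all genes called in the exposed leaf at 2, 4 and 8 min, in place of 50%, 55% and 50%. In the systemic leaf they were 64%, 70% and 74%, in place of 50%, 50% and 49%.

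In rbohD local leaves the rise at 2 min was present and faded. There 14 members rose and 4 fell at 2 min, beside 69.3% of all genes changed (35.5% up and 33.8% down). At 4 min 8 rose and 1 fell, beside 48.0% (25.0% up and 23.1% down), and at 8 min 4 rose and 2 fell, beside 35.2% (19.1% up and 16.0% down). Rescaling gave 9 rises and 0 falls at 4 min, with rises then 66% of all genes called in place of 52%. In the rbohD systemic leaf 8 rose and 3 fell at 2 min, beside 63.3% (31.8% up and 31.5% down). At 4 min 3 rose and none fell, beside 25.8% (13.5% up and 12.3% down), or 5 and 0 after rescaling, and at 8 min 1 rose and 2 fell, beside 14.3% (7.51% up and 6.79% down). After rescaling rises were 72% and 77% of all genes called at 4 and 8 min, in place of 52% and 53%. The split of members at 8 min was 1 rise and 1 fall after rescaling, and DESeq2 on recovered reads called 0 members at that time, with 4 at an unadjusted p under 0.05, while edgeR called 4. DESeq2 set no adjusted p there for 5804 of the 17609 genes, WRKY22 and WRKY51 among them. Leaving out replicate 1 of the 0 min or of the 8 min rbohD systemic libraries left 1 of these 3 calls.

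**Figure D1:**
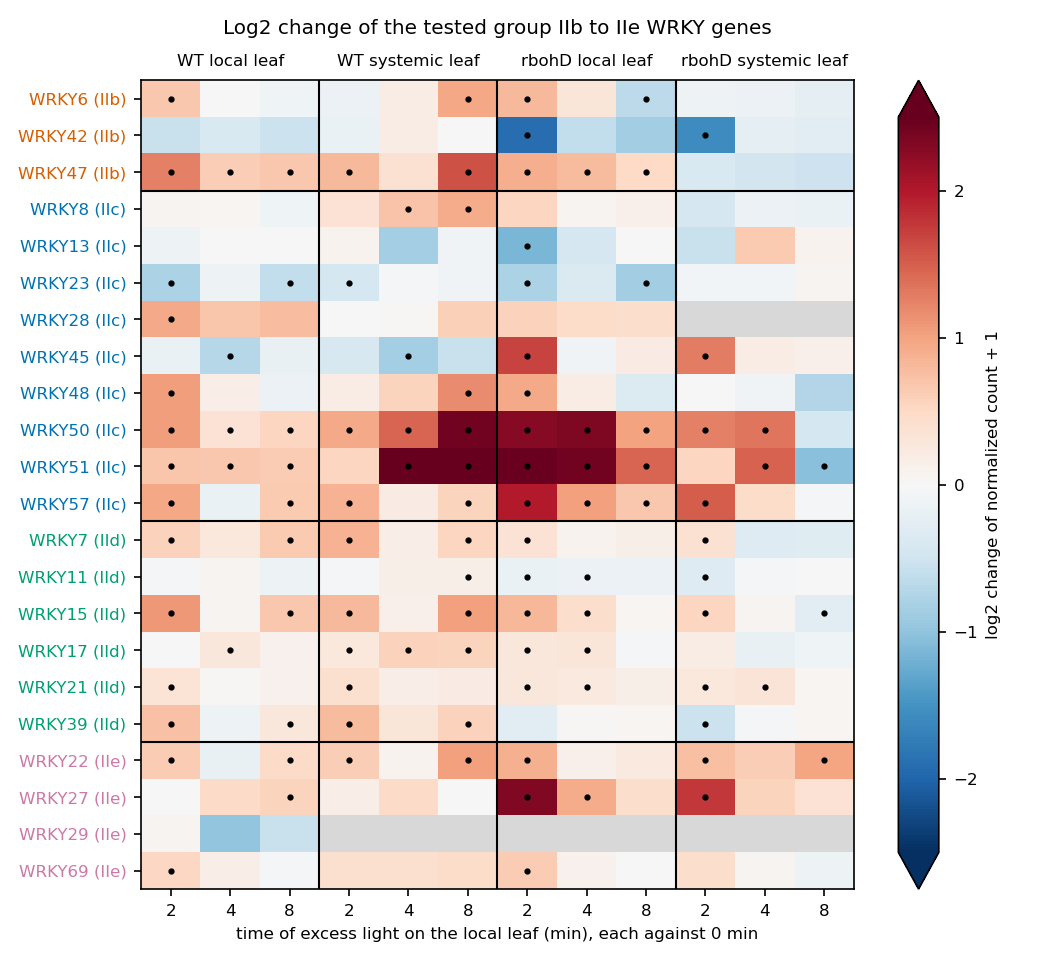
Log2 change of normalized count + 1 against 0 min for the 22 tested members (rows, by group) at 2, 4 and 8 min in the 4 combinations of genotype and leaf. Dots mark an adjusted p under 0.05, grey cells were not tested, and the colour scale ends at 2.5, which the 2.65 and 3.57 of WRKY51 in WT systemic leaves exceed; the WT systemic column at 8 min holds 13 rises and the rbohD systemic column 1.

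Between consecutive times most called changes of members in the exposed WT leaf were falls in the first step and rises in the second. From 2 to 4 min 3 rose and 12 fell in the local leaf, beside 65.2% of all genes changed (33.1% up and 32.1% down), and 6 rose and 8 fell in the systemic leaf, beside 59.7% (30.9% up and 28.8% down). From 4 to 8 min 5 rose and 1 fell in the local leaf, beside 38.9% (19% up and 19.9% down), and 8 rose and none fell in the systemic leaf, beside 40.0% (21.5% up and 18.5% down). In rbohD the second step had the other direction. From 2 to 4 min 3 rose and 8 fell in the local leaf, beside 54.1% (28.1% up and 26.0% down), and 5 rose and 6 fell in the systemic leaf, beside 54.9% (28.3% up and 26.6% down). From 4 to 8 min 6 fell in the local leaf, beside 28.1% (14.8% up and 13.4% down), and 5 in the systemic leaf, beside 23.4% (11.8% up and 11.5% down), with no rise in either. After rescaling 0 rose and 13 fell from 2 to 4 min in the WT local leaf, 3 rose and 8 fell in that step in the WT systemic leaf, 9 rose and 0 fell from 4 to 8 min in the WT systemic leaf, and 8 fell from 4 to 8 min in the rbohD local leaf. Rises were then 33%, 45%, 67.5% and 30% of all genes called, in the same order, in place of 51%, 52%, 53.8% and 52%. The count for 4 against 2 min in WT systemic leaves went from 14 to 7 without replicate 2 at 2 min and to 9 without replicate 1 at 4 min, and that in rbohD local leaves from 11 to 6 without replicate 1 or 2 at 4 min. The count for 8 against 4 min in WT systemic leaves went from 8 to 5 without replicate 3 at 8 min, and that in rbohD systemic leaves from 5 to 3 without replicate 1 or 2 at 4 min or replicate 1 or 3 at 8 min.

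Group IIb was led by WRKY47 (chr4:744804-748554, plus strand, RefSeq TAIR10.1), a factor tied to cell wall genes and aluminium tolerance. In WT local leaves WRKY47 had 52.5, 40.8 and 52.0 normalized counts at 0 min and 106, 112 and 134 at 2 min. Its WT systemic libraries were at 32.3, 24.6 and 25.8 at 0 min and 82.7, 80.4 and 88.9 at 8 min. The groups did not overlap in either leaf. The log2 change was 1.26 (SE 0.14, n = 3 against 3, limma adjusted p = 4.8e-08) in the local leaf at 2 min and 1.58 (SE 0.17, adjusted p = 7.4e-08) in the systemic leaf at 8 min. In rbohD local leaves WRKY47 rose too, by 0.92 at 2 min, 0.79 at 4 min and 0.50 at 8 min (adjusted p = 0.0073 at 8 min, and 0.068 in DESeq2). The rbohD systemic leaf had it at 45.0, 45.1 and 46.1 at 0 min and at 33.4, 31.4 and 29.6 at 8 min, and its log2 changes of -0.37, -0.46 and -0.52 did not pass the threshold in limma. The rbohD systemic libraries at 8 min were all below those at 0 min, and edgeR called this fall (adjusted p = 0.043). In systemic leaves the change in rbohD minus that in WT was -1.18 after 2 min, -0.84 after 4 min and -2.10 after 8 min (adjusted p = 7.4e-05, 0.012 and 6.8e-09, with 0.082 in DESeq2 at 4 min).

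The other tested members of group IIb, chosen for description after their values were seen, went different ways. WRKY6, a regulator of senescence and of the phosphate exporter PHO1, had 65.6, 93.4 and 82.2 normalized counts in WT systemic leaves at 0 min and 153, 157 and 159 at 8 min, with no overlap and a log2 change of 0.96 (SE 0.14, limma adjusted p = 8.2e-06). WRKY6 also rose by 0.68 in WT local and by 0.81 in rbohD local leaves at 2 min, and fell by 0.66 in rbohD local leaves at 8 min. In rbohD systemic leaves its change at 8 min was lower than in WT by 1.21 (interaction -1.21, adjusted p = 7.4e-05). WRKY42, which like WRKY6 represses PHO1, was a low transcript that fell only in rbohD among the comparisons run. It went from 19.9, 14.2 and 12.8 to 1.02, 6.30 and 4.80 in local leaves at 2 min and from 20.6, 16.8 and 25.2 to 9.26, 4.29 and 6.13 in systemic leaves, without overlap in either. These changes were -1.90 (SE 0.44) and -1.57 (SE 0.31), and the differences from WT were -1.35 (adjusted p = 0.045) and -1.40 (adjusted p = 0.016). The local difference rested on few reads and lost its call in DESeq2 (adjusted p = 0.10) and without rbohD replicate 1 at 2 min (0.22).

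**Figure D2:**
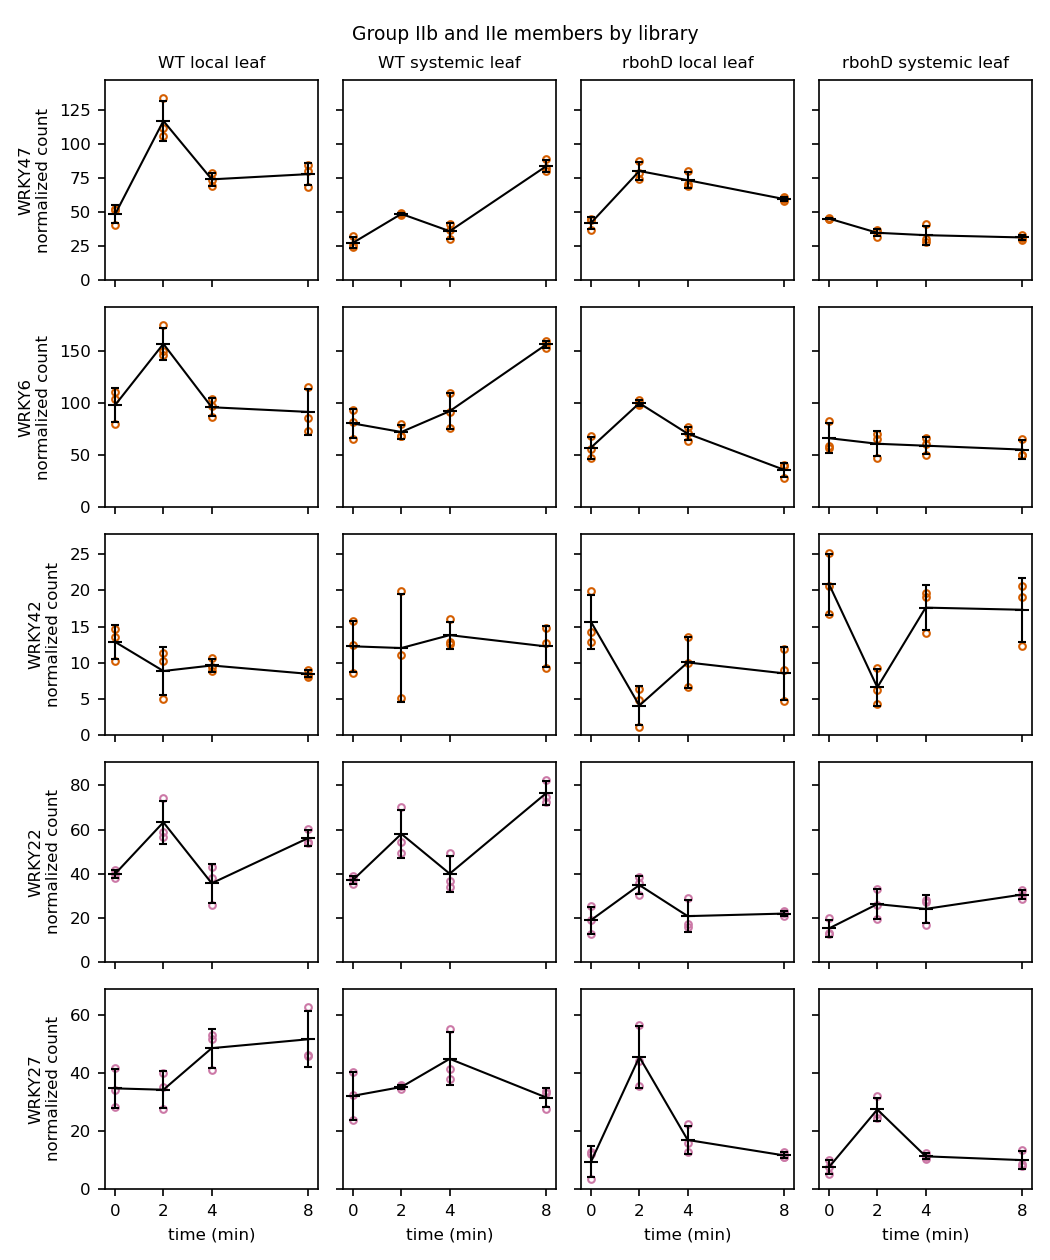
Normalized counts of WRKY47, WRKY6 and WRKY42 (group IIb) and of WRKY22 and WRKY27 (group IIe) by time of light in the 4 combinations of genotype and leaf. Open circles are libraries and black lines join means with SD (n = 3); WRKY47 reached 84.0 in WT systemic leaves at 8 min against 31.5 in rbohD, and WRKY27 reached 45.4 in rbohD local leaves at 2 min from 9.39.

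Group IIc held the largest rises of the set. WRKY50 (chr5:9146879-9148391, minus strand) and WRKY51 (chr5:25908247-25909881, plus strand), which mediate the repression of jasmonate responses when salicylic acid is high, were called in 11 and 10 of the 12 comparisons with 0 min. In WT systemic leaves WRKY50 had 50.6, 38.3 and 43.0 normalized counts at 0 min, 81.9, 82.8 and 89.6 at 2 min, 138, 108 and 118 at 4 min, and 256, 223 and 233 at 8 min. Each time point lay above the one before without overlap. The log2 change against 0 min was 0.94, 1.45 and 2.41 at 2, 4 and 8 min (SE 0.12, limma adjusted p = 1.0e-06, 6.8e-09 and 3.8e-13), the last a 5.33-fold rise. In the rbohD systemic leaf WRKY50 started at 31.9, 28.3 and 27.4, reached 72.4, 73.2 and 78.7 at 4 min and was back at 16.2, 27.4 and 21.7 at 8 min. The highest library at 8 min and the lowest at 0 min were both at 27.4, and the change of -0.43 (95% confidence interval -0.81 to -0.05) did not pass the threshold after adjustment (adjusted p = 0.13).

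WRKY51 took a like course in WT systemic leaves, with its first called rise at 4 min. Its timing was not compared with that of WRKY50 by a test. It had 11.8, 3.93 and 14.3 normalized counts at 0 min, 12.1, 14.7 and 13.3 at 2 min, 65.8, 50.2 and 68.5 at 4 min and 108, 111 and 134 at 8 min. The change was 0.53 at 2 min, which did not pass the threshold, then 2.65 (SE 0.29, adjusted p = 3.4e-07) and 3.57 (SE 0.29, adjusted p = 1.2e-09), an 11.9-fold rise. In the rbohD systemic leaf WRKY51 went from 14.1, 6.29 and 13.2 at 0 min to 32.2, 31.9 and 30.0 at 4 min and to 3.82, 3.92 and 6.51 at 8 min. The 4 min libraries were above those at 0 min, with a change of 1.48 (adjusted p = 0.00047). The 8 min libraries overlapped those at 0 min, with a change of -1.04 (adjusted p = 0.024, and 0.050 without a filter on low values and 0.069 with only those groups fitted).

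The genotypes therefore parted at 8 min in systemic leaves. The change in rbohD minus that in WT was -2.85 for WRKY50 (SE 0.22, adjusted p = 4.3e-13) and -4.62 for WRKY51 (SE 0.44, adjusted p = 9.4e-11), the largest such differences among the members. At 2 min the differences were 0.32 and 0.01, with 95% confidence intervals of -0.13 to 0.76 and -0.89 to 0.90. From 4 to 8 min WRKY50 rose by 0.97 in WT and fell by 1.76 in rbohD systemic leaves, and WRKY51 rose by 0.93 and fell by 2.52.

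In local leaves the changes of both transcripts at 2 and 4 min were larger in rbohD than in WT, and at 8 min neither had a called difference. WRKY50 had 36.5, 25.1 and 43.1 normalized counts in rbohD local leaves at 0 min, 168, 151 and 191 at 2 min, 196, 166 and 171 at 4 min and 50.9, 82.4 and 79.5 at 8 min. In WT local leaves it had 146, 152 and 134 at 0 min, 334, 271 and 291 at 2 min, 170.3, 189 and 199 at 4 min and 244, 189 and 199 at 8 min. All later groups were above 0 min without overlap in both genotypes. The changes were 2.28, 2.34 and 1.00 in rbohD and 1.04, 0.36 and 0.54 in WT, and the difference was 1.24 at 2 min and 1.98 at 4 min (adjusted p = 8.2e-06 and 3.3e-09). WRKY51 rose in rbohD local leaves from 13.3, 13.1 and 5.5 to 58.0, 58.8 and 61.4 at 2 min, and in WT local leaves from 52.5, 66.2 and 53.7 to 121, 76.8 and 87.0. The difference of the changes was 1.77 at 2 min and 1.75 at 4 min (adjusted p = 1.0e-05 and 2.8e-05). Both transcripts were listed lower at 0 min in rbohD than in WT local leaves, at means of 34.9 against 144 for WRKY50 and 10.6 against 57.5 for WRKY51, and the part of this start level in the larger change was not tested.

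**Figure D3:**
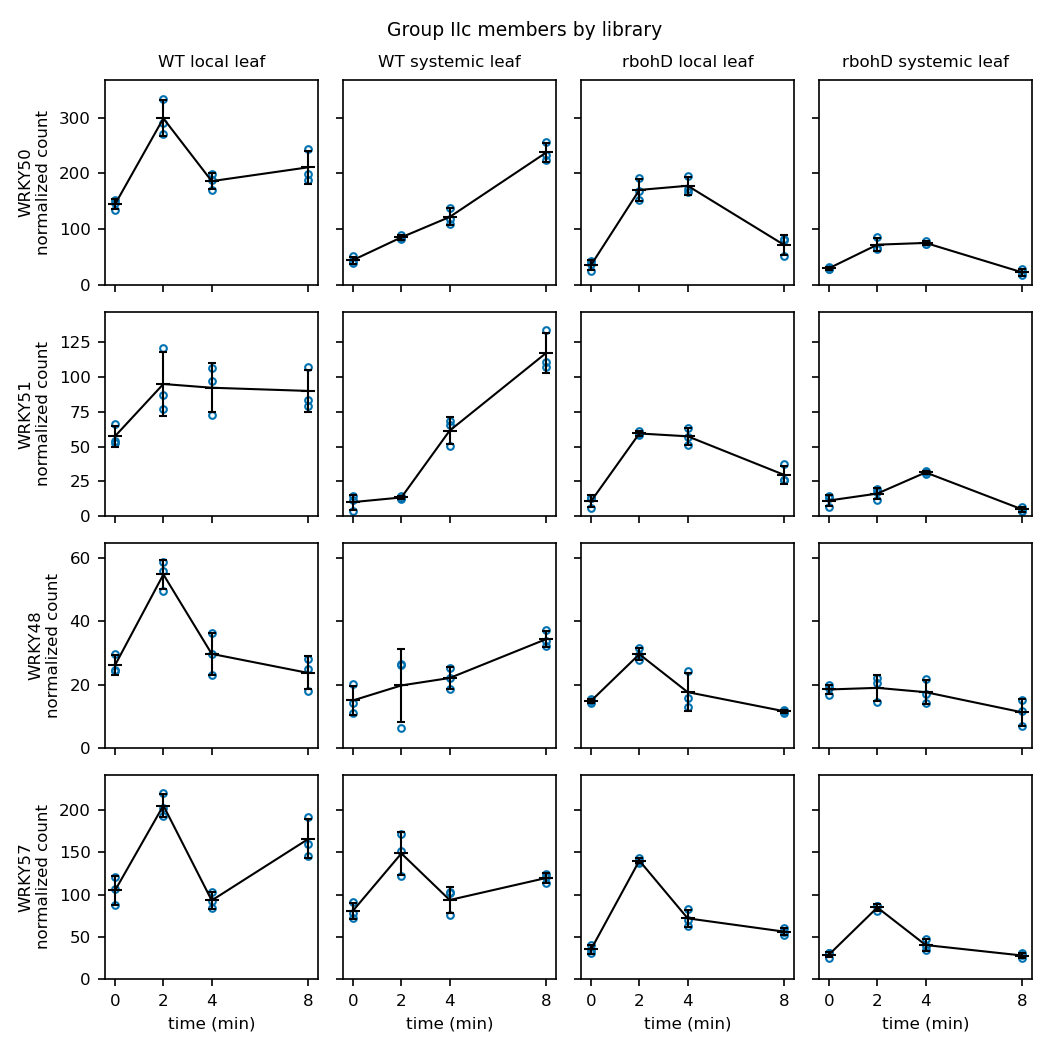
Normalized counts of WRKY50, WRKY51, WRKY48 and WRKY57 (group IIc) by time of light in the 4 combinations of genotype and leaf. Open circles are libraries and black lines join means with SD (n = 3); in WT systemic leaves WRKY50 and WRKY51 climbed to means of 238 and 117 at 8 min, while in rbohD systemic leaves they were at 21.8 and 4.75.

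WRKY57 (chr1:26054275-26058383, minus strand), which raises drought tolerance and delays senescence brought on by jasmonate, rose at 2 min in every leaf and genotype. Its libraries went from 39.8, 35.0 and 30.3 to 137, 143 and 140.1 normalized counts in rbohD local leaves and from 30.9, 25.2 and 30.7 to 80.3, 86.8 and 87.0 in rbohD systemic leaves. In WT local leaves they went from 121, 106 and 87.5 to 203, 193 and 219.9, and in WT systemic leaves from 91.4, 78.6 and 72.6 to 122, 172 and 152. No groups overlapped. The changes were 1.98 (SE 0.15) and 1.52 (SE 0.18) in rbohD and 0.97 (SE 0.12) and 0.86 (SE 0.14) in WT, so the rise was larger in rbohD by 1.01 in local and by 0.66 in systemic leaves (adjusted p = 2.3e-05 and 0.0093). WRKY57 was listed at means of 35.0 and 28.9 at 0 min in rbohD and at 105 and 80.9 in WT, and the part of this was not tested. At 4 min WRKY57 was near its start in WT, with changes of -0.16 and 0.20 that did not pass the threshold, and at 8 min it was again raised, by 0.66 and 0.56. Its change at 8 min in rbohD systemic leaves was -0.05, which differed from WT by -0.62 (adjusted p = 0.023, and 0.090 in DESeq2).

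WRKY48 (chr5:20090648-20093346, plus strand), a stress-induced activator that lowers basal resistance to bacteria, had 29.7, 24.5 and 24.2 normalized counts in WT local leaves at 0 min and 56.0, 49.7 and 59.0 at 2 min. In the WT systemic leaf it rose only at 8 min among the times tested, from 14, 10.8 and 20.1 to 32.2, 33.8 and 37.3. Neither pair of groups overlapped, and the changes were 1.04 (SE 0.21) and 1.19 (SE 0.37). In rbohD local leaves it rose by 0.95 at 2 min. In rbohD systemic leaves at 8 min it had 11.5, 6.86 and 15.2 against 18.8, 16.8 and 19.8 at 0 min, a change of -0.73 that did not pass the threshold, and the difference from WT was -1.92 (SE 0.49, adjusted p = 0.0018).

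The remaining group IIc members, described after their values were seen, were lower and less regular. WRKY23, which acts in auxin transport in roots and embryos, was not raised in any comparison with 0 min and fell in 5, by 0.79 in WT local, 0.43 in WT systemic and 0.79 in rbohD local leaves at 2 min and by 0.61 and 0.87 in WT and rbohD local leaves at 8 min. The WT systemic fall was not called after rescaling (adjusted p = 0.055), nor the WT local fall at 8 min without a filter (0.057). WRKY45, an activator of the phosphate transporter PHT1;1, rose at 2 min in rbohD only among the comparisons run. It went from 5.52, 10.9 and 6.42 to 24.4, 22.1 and 31.7 in local leaves and from 9.38, 6.29 and 7.68 to 15.4, 28.9 and 18.4 in systemic leaves, without overlap. The changes of 1.68 and 1.29 exceeded those of WT by 1.86 and 1.70 (adjusted p = 0.00076 and 0.0013). In WT, where WRKY45 started at means of 29.4 and 26.3 against 7.63 and 7.78 in rbohD, it fell by 0.71 and 0.85 at 4 min. DESeq2 called neither of these falls (adjusted p = 0.11 and 0.099), and neither was called in limma without single libraries, among them local replicate 2 at 4 min (0.081) and systemic replicate 1 at 4 min (0.16). WRKY8, which acts in salt tolerance, rose in WT systemic leaves by 0.72 at 4 min and 0.93 at 8 min, the first not called by DESeq2 (0.061). WRKY28, an activator of the salicylic acid gene ICS1, rose by 0.96 in WT local leaves at 2 min (limma adjusted p = 0.027, DESeq2 0.060), and WRKY13 fell by 1.14 in rbohD local leaves at 2 min.

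In group IId 3 of the 6 tested members were raised at 2 and 8 min and not at 4 min in each WT leaf, namely WRKY7, WRKY15 and WRKY39, and no member of the group was in rbohD. The pattern was not particular to this group. In each WT leaf 1 member of group IIc and 1 of group IIe had it, and in WT systemic leaves 1 of group IIb. In all 5 of 22 tested members had it in WT local and 6 of 21 in WT systemic leaves. The share of all genes with this pattern was not computed. At the edges of this pattern, WRKY7 in the exposed WT leaf had a limma adjusted p of 0.050 at 4 min. With replicate number added to the fit its rise there was called, which takes WRKY7 out of the pattern in that leaf. The rise of WRKY39 in the exposed WT leaf at 8 min was not called by DESeq2 (0.10). Rescaling called rises of WRKY15 and WRKY39 in the WT systemic leaf at 4 min (0.046 and 0.032). WRKY15 (chr2:9924886-9926372, plus strand), which responds to reactive oxygen species and acts in growth and osmotic stress, had 313, 322 and 274 normalized counts in the exposed WT leaf at 0 min, 682, 645 and 612 at 2 min, 308, 338 and 309.6 at 4 min and 505, 456 and 496 at 8 min. In WT systemic leaves WRKY15 had 251, 264 and 241 at 0 min, 460.2, 449.9 and 417 at 2 min, 278, 252 and 292 at 4 min and 527, 508 and 511 at 8 min. The libraries at 2 and 8 min lay above those at 0 and 4 min without overlap in both leaves.

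The changes of WRKY15 against 0 min were 1.09, 0.07 and 0.68 in WT local and 0.81, 0.12 and 1.03 in WT systemic leaves (SE 0.07 for each). The rises at 2 min were also present in rbohD, at 0.83 (SE 0.08) in local and 0.54 (SE 0.09) in systemic leaves. In rbohD local leaves WRKY15 was still called as raised at 4 min, at 267.5, 267.6 and 280 normalized counts, without overlap with 0 min. At 8 min WRKY15 was at 191, 239 and 196 in rbohD local leaves against 215, 200.1 and 186 at 0 min, and at 153, 152 and 176 in rbohD systemic leaves against 220.4, 189 and 175. Both overlapped, with changes of 0.05 and -0.27 (adjusted p = 0.042 for the second, and 0.051 to 0.11 when only those groups were fitted, without a filter, after rescaling or in DESeq2). The change at 8 min was lower in rbohD than in WT by 0.63 in local leaves (interaction -0.63, adjusted p = 8.7e-05) and by 1.3 in systemic leaves (interaction -1.3, adjusted p = 5.2e-11).

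WRKY7, which limits defence against bacteria, rose by 0.58 and 0.66 at 2 and 8 min in WT local leaves and by 0.86 and 0.53 in WT systemic leaves. In rbohD it rose by 0.37 at 2 min in each leaf and was at 78.3, 64.7 and 73.0 normalized counts at 8 min in systemic leaves against 77.8, 91.2 and 97.7 at 0 min, which overlapped. Its difference between genotypes was -0.49, -0.50 and -0.83 at 2, 4 and 8 min in systemic leaves and -0.52 at 8 min in local leaves (adjusted p = 0.020, 0.048, 3.0e-04 and 0.010, with 0.13 in DESeq2 for the second). WRKY39, a calmodulin-binding factor of the heat response, differed between genotypes already at 2 min. It rose from 95.9, 108 and 107 to 165, 171 and 185 in WT local and from 114, 107 and 82.2 to 177, 157 and 187 in WT systemic leaves. In rbohD it went from 92.8, 87.5 and 112 to 79.4, 80.9 and 80.6 in local and from 136, 101 and 93.3 to 74.1, 87.9 and 63.7 in systemic leaves. All rbohD libraries at 2 min were below those at 0 min, with a called fall of 0.53 in systemic leaves, and the differences from WT were -1.01 and -1.32 (adjusted p = 1.9e-06 and 3.1e-07).

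WRKY11 and WRKY17, closely related repressors of resistance to Pseudomonas, moved less and unlike each other. WRKY11 stayed between 427 and 717 normalized counts in all 48 libraries, with called changes of 0.16 in WT systemic leaves at 8 min and of -0.17, -0.15 and -0.33 in rbohD. The falls of WRKY11 in rbohD local leaves at 2 and 4 min were not called after rescaling (adjusted p = 0.12 and 0.33), nor its rise by DESeq2 (0.071). WRKY17 went from 218, 192 and 152 in WT systemic leaves at 0 min to 243, 306 and 279 at 4 min and 270.3, 278 and 274 at 8 min, without overlap. Those changes were 0.57 and 0.56, and in rbohD systemic leaves the changes at these times were lower by 0.76 and 0.67 (interactions -0.76 and -0.67, adjusted p = 1.4e-04 and 2.6e-04). WRKY21 rose by 0.27 to 0.41 at 2 min in every leaf and genotype (limma adjusted p = 6.0e-04 to 0.015, with 0.053 in DESeq2 for the rbohD systemic leaf).

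**Figure D4:**
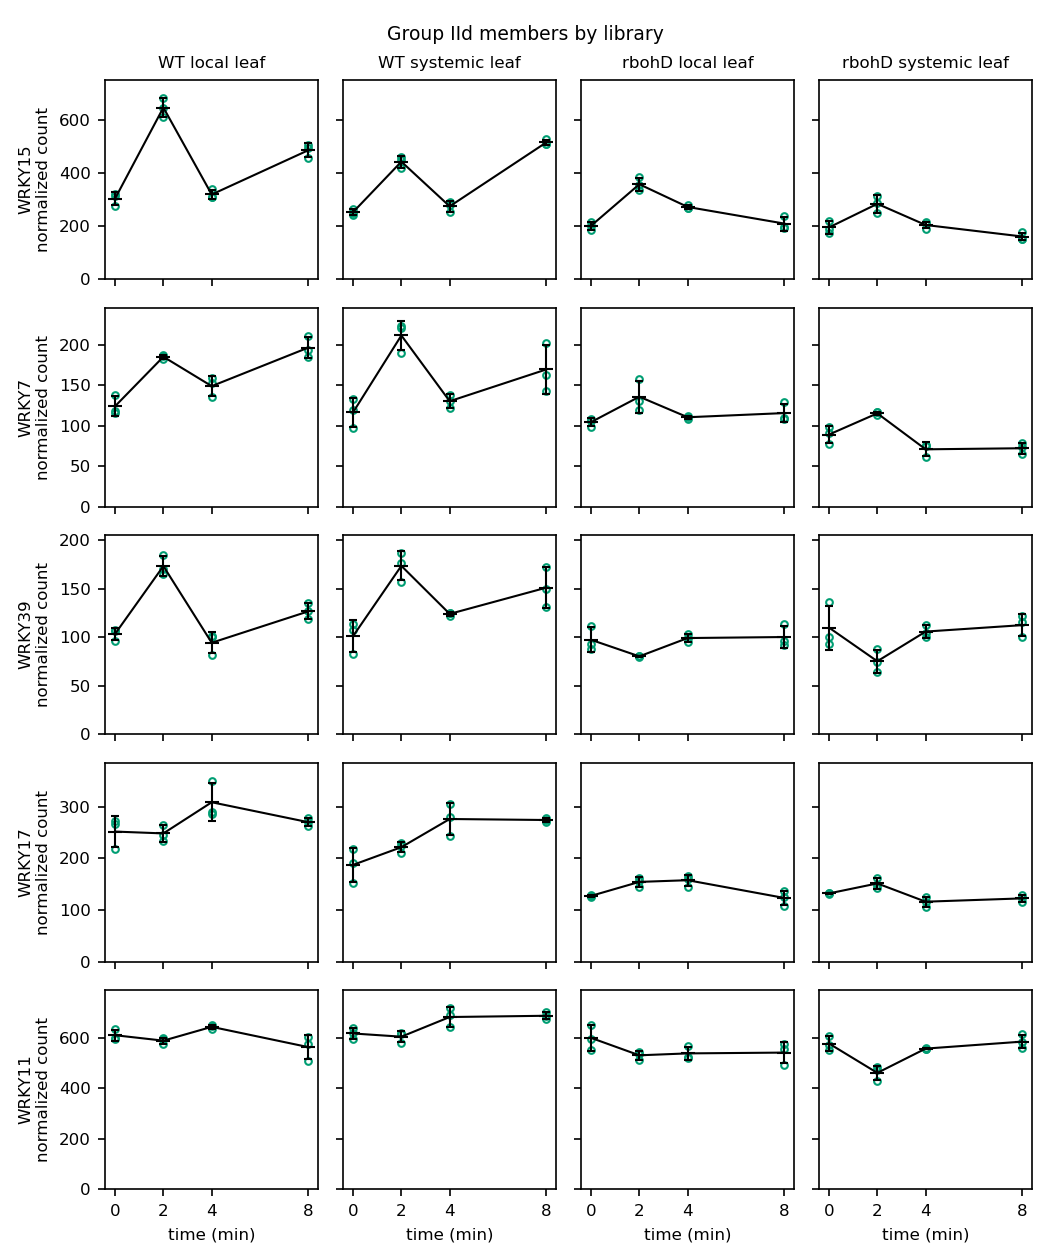
Normalized counts of WRKY15, WRKY7, WRKY39, WRKY17 and WRKY11 (group IId) by time of light in the 4 combinations of genotype and leaf. Open circles are libraries and black lines join means with SD (n = 3); WRKY15 had maxima at 2 min (646 and 442) and 8 min (486 and 515) in WT local and systemic leaves, and at 2 min only (357 and 283) in rbohD.

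In group IIe, WRKY22 rose in systemic leaves at 8 min in both genotypes. WRKY22 (chr4:522530-524249, minus strand), an output of flagellin signalling that also promotes senescence in the dark, had 38.7, 37.3 and 35.4 normalized counts in WT systemic leaves at 0 min and 72.6, 82.5 and 74.5 at 8 min. In rbohD systemic leaves it had 13.1, 12.6 and 19.8 at 0 min and 28.6, 30.4 and 32.5 at 8 min. Neither pair of groups overlapped. The changes were 1.02 (SE 0.17, adjusted p = 3.9e-05) and 0.99 (SE 0.25, adjusted p = 0.0056), the second with 0.0035 in edgeR and no adjusted p in DESeq2, whose filter on low means left the gene out, and their difference was -0.03 with a 95% confidence interval of -0.65 to 0.59. WRKY22 also rose at 2 min in all 4 combinations, by 0.64, 0.61, 0.89 and 0.75, with an overlap of libraries in rbohD systemic leaves. In local leaves at 8 min it was called as raised in WT, at 53.8, 60.1 and 54.6 against 40.0, 38.1 and 41.6 at 0 min. In rbohD local leaves at 8 min it was not called, and the difference between genotypes there was not called either.

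WRKY27 (chr5:21410769-21412526, plus strand), which affects symptoms of bacterial wilt, rose at 2 min in rbohD and not detectably in WT at that time. Its libraries went from 3.31, 12 and 12.8 to 35.6, 44.1 and 56.6 normalized counts in rbohD local leaves and from 7.50, 5.24 and 9.88 to 31.9, 25.7 and 24.5 in rbohD systemic leaves. In WT local leaves they were 34.3, 28.1 and 41.6 at 0 min and 27.5, 35.0 and 40.0 at 2 min, and in WT systemic leaves 23.7, 32.4 and 40.1 and then 35.4, 35.7 and 34.3. The rbohD groups did not overlap and the WT groups did. The changes in rbohD were 2.31 (SE 0.34) and 1.76 (SE 0.32), and they exceeded those of WT by 2.33 (95% confidence interval 1.48 to 3.17, adjusted p = 1.3e-05) and 1.60 (0.89 to 2.32, adjusted p = 2.1e-04). WRKY27 was at means of 9.39 and 7.54 at 0 min in rbohD and 34.6 and 32.1 in WT, and the part of this was not tested. In WT local leaves WRKY27 was called as raised at 8 min, at 45.8, 46.2 and 62.6 normalized counts, without overlap with 0 min. In rbohD local leaves its rise of 0.92 at 4 min overlapped and was not called by edgeR or DESeq2 (adjusted p = 0.055 and 0.11). WRKY69 rose by 0.52 and 0.63 in WT and rbohD local leaves at 2 min, which DESeq2 did not call (0.073 and 0.11), and WRKY29 was at 12.1 normalized counts or less and was not called in the 3 comparisons with 0 min in which it was tested.

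Over all members the genotypes differed most in systemic leaves at 8 min. There 11 of 20 members had a lower change in rbohD than in WT and none a higher one, beside 35.7% of all genes called (16.8% lower and 19% higher). These were 2 of 3 in group IIb, 5 of 8 in group IIc, 4 of 6 in group IId and 0 of 3 in group IIe, where the values were -0.59, -0.03 and 0.36. The median difference was -0.61 over members and 0.02 over all genes. Rescaling gave 12 lower and 0 higher, and leaving out single libraries gave 9 to 11. After rescaling higher changes in rbohD were 37% of all genes called, in place of 53%. At 2 min in systemic leaves 3 members had a higher and 6 a lower change, beside 55.8% of all genes called (29.4% higher and 26.4% lower), and at 4 min 1 a higher and 4 a lower one, beside 18.5% (10.2% higher and 8.26% lower). The count at 4 min fell from 5 to 2 without replicate 3 at 4 min of either genotype and to 3 without WT replicate 2 at 0 min or rbohD replicate 3 at 0 or 8 min.

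In local leaves the differences between genotypes had both signs. At 2 min 5 members had a higher change in rbohD (WRKY27, WRKY45, WRKY50, WRKY51 and WRKY57) and 3 a lower one (WRKY15, WRKY39 and WRKY42), beside 54.4% of all genes called (29.7% higher and 24.6% lower). At 4 min 4 were higher and 1 lower, beside 33.4% (17.5% higher and 15.9% lower), and at 8 min WRKY7 and WRKY15 were lower, beside 18.5% (11.5% higher and 6.92% lower). After rescaling the splits were 5 higher and 5 lower at 2 min and 5 higher and 0 lower at 4 min, and 3 higher and 7 lower in systemic leaves at 2 min. Higher changes were then 42%, 70% and 39% of all genes called, in the same order, in place of 55%, 53% and 53%. The count at 8 min was 4 without rbohD replicate 3 at 0 min.

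**Figure D5:**
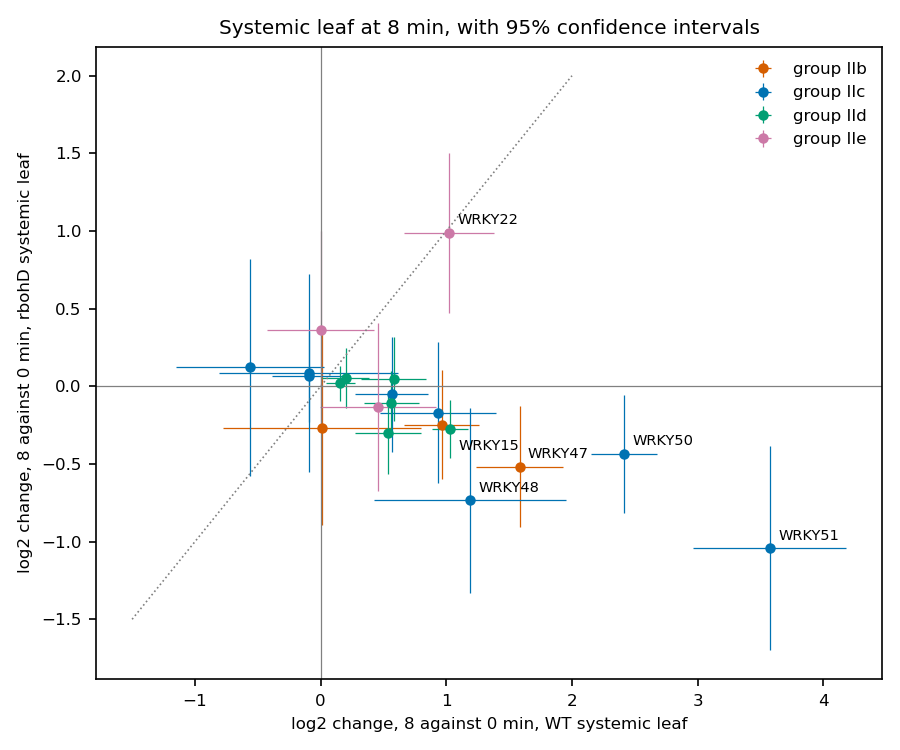
Log2 change of normalized count + 1 at 8 against 0 min in WT systemic leaves (horizontal axis) and rbohD systemic leaves (vertical axis) for the 20 members tested in both, with 95% confidence intervals and colours by group. The dotted line marks equal changes; WRKY22 lies on it at 1.02 and 0.99, while WRKY50 and WRKY51 lie far to the right at 2.41 and 3.57, with -0.43 and -1.04 in rbohD.

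Comparing leaves within a genotype, the change at 8 min in WT was larger in the systemic than in the local leaf for 9 of 21 members and smaller for none, beside 13.8% of all genes called (8.22% larger and 5.58% smaller). The 9 were WRKY6, WRKY47, WRKY8, WRKY48, WRKY50, WRKY51, WRKY11, WRKY15 and WRKY17, with 1.88 for WRKY50 and 2.94 for WRKY51. The count was 5 without WT local replicate 2 at 0 min and 4 without WT local replicate 2 at 8 min. At 4 min WRKY50 and WRKY51 were the 2 members with a larger systemic change, 1.08 and 1.98 (6.35% of all genes called, 4.13% larger and 2.22% smaller). At 2 min 1 member, WRKY6, had a smaller one (-0.82, beside 12% of all genes called, 6.72% larger and 5.33% smaller), and WRKY15 joined it with the replicate block of plants (-0.28, adjusted p = 0.041 with the block and 0.057 without). In rbohD 1 member had a larger and 5 a smaller change in the systemic leaf at 2 min, beside 25.8% of all genes called (14.5% larger and 11.3% smaller). At 4 min 4 had a smaller one, beside 16.6% (8.43% larger and 8.16% smaller), and at 8 min 1 had a larger and 4 a smaller one, beside 20.9% (9.02% larger and 11.9% smaller). WRKY47 and WRKY50 were smaller at each of the 3 times. Rescaling gave 0 larger and 2 smaller in WT at 2 min and 1 larger and 8 smaller in rbohD at 2 min, and left the counts in WT at 4 and 8 min and in rbohD at 8 min as they were. The split of all genes moved with it. Larger systemic changes were then 35%, 87% and 85% of all genes called in WT at 2, 4 and 8 min, in place of 56%, 65% and 60%. In rbohD they were 35% at 2 min and 57% at 8 min, in place of 56% and 43%.

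Other WRKY groups gave a scale for these values. In WT systemic leaves at 8 min, 13 of 21 members rose with a median change of 0.56. Of the tested members of groups I and IIa 8 of 15 rose (median 0.33), and of group III 8 of 8 (median 2.38). Over all genes 21.8% rose, with a median of -0.01. Groups I and IIa hold 17 genes and group III 13, and those below the filter were not counted. A low gene of any group can pass the filter through its 8 min libraries alone, which favours rises in these counts and medians. Within the set the medians were 0.96 in group IIb, 0.60 in IIc, 0.55 in IId and 0.46 in IIe. The change at 8 min in systemic leaves was lower in rbohD for 7 of 15 members of groups I and IIa (median difference -0.53) and 6 of 6 of group III (median -2.34). Over all genes 16.8% were called as lower. WRKY51 at 3.57 and WRKY50 at 2.41 in WT systemic leaves were thus above the median of group III, which the other members were not. These lists were chosen with earlier results known and were described without a test.

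Known partners of the members were also followed. Of the MAP kinase cascade upstream of group IIe, 7 of 7 transcripts rose in WT systemic leaves at 8 min, where 21.8% of all genes rose, among them MKK4 by 1.21 and MPK3 by 1.02, and in rbohD their changes ran from -0.09 to 0.10 (limma adjusted p of 0.16 to 0.82). The difference between genotypes was called as lower in rbohD in all 7, beside 16.8% of all genes, with -1.27 for MKK4 and -1.11 for MPK3. The difference of WRKY22 at that time was not called and had a wide confidence interval. A link between WRKY22 and these transcripts was not tested, and kinase activity was not measured here. Of the 7 calmodulin genes, whose products bind group IId proteins, 5 rose in WT systemic leaves at 8 min, CAM2 by 1.04 and CAM3 by 0.70, and 4 had a lower change in rbohD. Of the 5 tested genes for VQ proteins, which bind WRKY domains, SIB1, VQ10 and JAV1 rose by 1.99, 2.49 and 1.51 in WT and had lower changes in rbohD, with differences of -1.89, -3.94 and -1.63. VQ10 is known to bind WRKY8, and VQ9, another WRKY8 partner, had a change of -0.11 in WT that was not called. MKS1 had a change of 0.36 in WT and a difference of -0.55, neither called (limma adjusted p = 0.065 and 0.14). Among 4 tested genes reported as targets, ICS1 rose by 1.86 and FRK1, a marker of flagellin signalling, by 3.46 in WT systemic leaves, NCED3 of abscisic acid synthesis by 0.35, and PHO1 had 0.18 without a call. The differences for ICS1 and FRK1 were -1.95 and -5.07, and the one for NCED3 was 0.12 (adjusted p = 0.63).

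Relatives in sequence did not always share a time course. The 165 bases that encode the WRKY domain were 66.9% identical between WRKY50 and WRKY51, each the closest member to the other, and their mean log2 levels over the 16 groups, centred within each leaf and genotype, had a Pearson r of 0.92. WRKY7 and WRKY15 were 77.0% identical with r of 0.83. WRKY11 and WRKY17 were 89.1% identical, the highest identity of any pair in which both were tested throughout, and had r of -0.01. WRKY8 and WRKY48 were 77.6% identical with r of 0.66. Some pairs from different groups were as alike in course, with r of 0.91 for WRKY6 and WRKY48 and 0.86 for WRKY15 and WRKY57. These 16 points share libraries between genes and are given as a description.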

How the data were processed

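Libraries were grouped by the genotype, leaf, time and replicate number in the labels. According to the methods, stranded poly(A) libraries were read single-end and aligned with STAR 2.4.0.1 to TAIR10; FastQC 0.11.7 and DESeq2 1.20.0 also stand in the submitters' processing notes. Mapping kept reads with several locations; the read counter and how it used strand and such reads are not given in the sources used here, so WRKY9, WRKY61, WRKY29 and WRKY69, which overlap other annotated genes, are uncertain. No source assigns libraries to treatment batches or sequencing cartridges. The authors deposited a signal per gene, the count divided by a DESeq2 size factor, in 4 tables of 12 libraries that were normalized separately. Values were whole multiples of 1 step (tolerance 0.001 reads), which gave back whole reads for 100% of values. Depth limits low members to a few reads, and no replicate pair agreed within counting noise.

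Genes that reached 10 normalized counts in 3 or more of the 12 libraries were tested on log2(normalized count + 1) with limma 3.58.1 (R 4.3.3; mean-variance trend, two-sided, Benjamini-Hochberg over all genes tested, threshold 0.05); this scale understates changes of low genes. The 4 times of a table shared a fit, and interactions used 24 libraries. Alternatives were pseudocount 5, no filter, each library rescaled to one total, edgeR 4.0.16 and DESeq2 1.42.0 on recovered reads, the replicate block, only the groups compared, and each library left out. edgeR called 2745 to 12168 genes per comparison with 0 min. For leaf by time, equal numbers mark leaves of one pool of plants, as the methods imply; the correlation of their deviations was -0.00 to 0.14 in WT and -0.01 to 0.06 in rbohD. Described one by one were members with a mean of 20 normalized counts and a called log2 change of 1 without overlap of libraries in at least 1 table, plus WRKY48 and WRKY57 (which met this too); others were chosen after their values were seen. The members and lists were chosen with earlier results of these data known. Identity was computed on coding DNA (Biopython 1.88), since proteins were not used here.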

Additional observations from a re-analysis of the deposited data

Results flagged for a closer look

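Differences of a log2 size of 1 or more between the changes of 2 groups, with a limma adjusted p under 0.05, were picked out among the 8 members described by rule. Between genotypes (rbohD minus WT) in local leaves they were 2.33 for WRKY27, 1.77 for WRKY51, 1.24 for WRKY50 and 1.01 for WRKY57 at 2 min, and 1.98 for WRKY50, 1.75 for WRKY51 and 1.18 for WRKY57 at 4 min. In systemic leaves they were 1.60 for WRKY27 and -1.18 for WRKY47 at 2 min. At 8 min in systemic leaves they were -4.62 for WRKY51, -2.85 for WRKY50, -2.10 for WRKY47, -1.92 for WRKY48 and -1.3 for WRKY15.

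Between leaves of WT (systemic minus local) the differences were 1.08 for WRKY50 and 1.98 for WRKY51 at 4 min, and 1.88 for WRKY50, 2.94 for WRKY51 and 1.35 for WRKY48 at 8 min. That of WRKY48 had an adjusted p of 0.044, which became 0.071 without a filter on low values and 0.050 to 0.12 without any 1 of 13 libraries of either leaf. Between leaves of rbohD they were -1.29 for WRKY47, -1.02 for WRKY50 and -1.93 for WRKY51 at 2 min, -1.25 for WRKY47 and -1.01 for WRKY50 at 4 min, and -1.01 for WRKY47, -1.44 for WRKY50 and -2.5 for WRKY51 at 8 min.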

How the results depend on the processing

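No named value reversed. Of 224 counts of changed members 207 stayed within 1.5 times under these settings, and the cause of the others was not tested. Without a filter the counts were 3 in place of 5 for genotype by time in systemic leaves at 4 min, 2 in place of 1 for leaf by time in WT at 2 min, 1 in place of 3 at 8 against 0 min and 3 in place of 5 at 8 against 4 min in rbohD systemic leaves. With only the groups compared, the first of these was 3 and the third 1. With DESeq2 they were 1 and 0, and DESeq2 also gave 2 in place of 4 for leaf by time in rbohD at 4 min, 5 in place of 9 and 6 in place of 11 at 4 against 0 and 2 min in rbohD local leaves, 3 in place of 5 at 8 against 4 min in rbohD systemic leaves, and 3 in place of 5 at 4 against 0 min in WT systemic leaves. Rescaling gave 2 for leaf by time in WT at 2 min, 5 in place of 3 at 4 against 0 min in rbohD systemic leaves and 8 in place of 5 in WT systemic leaves, and it moved the median of all genes by up to 0.17 in comparisons with 0 min. In 7 of these 12 comparisons it moved the share of rises among all genes called by over 10 points. The replicate block gave 2 for leaf by time in WT at 2 min. Within a table equal numbers did not pair libraries by their correlations (-0.08 to 0.15), although 11 of the 12 local and 8 of the 12 systemic WT libraries, and 7 local and 5 systemic rbohD ones, correlated best with their own number, a hint from the data and not the design. In all the block ended 3 calls on members and added 5, among them WRKY7 in WT local leaves at 4 against 0 min (limma adjusted p = 0.040), which had been left out of its pattern of rises at 2 and 8 min. Other settings ended more calls. DESeq2 ended 48 and added 0, and leaving out the filter ended 31 and added 0. With only the groups compared 14 ended and 6 were added, and with rescaling 12 and 22. The numbers were 6 and 7 for edgeR and 1 and 1 for the larger pseudocount.

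Leaving out each library gave ranges, for comparisons with 0 min at 2, 4 and 8 min, of 12 to 14, 2 to 6 and 6 to 10 in WT local, 9 to 10, 3 to 6 and 12 to 13 in WT systemic, 16 to 18, 7 to 9 and 6 to 7 in rbohD local, and 9 to 11, 3 to 5 and 1 to 4 in rbohD systemic leaves. For 4 against 2 and 8 against 4 min they were 11 to 16 and 6 to 7, 7 to 14 and 5 to 9, 6 to 11 and 5 to 6, and 9 to 11 and 3 to 5 in the same order. For genotype by time they were 6 to 8, 4 to 5 and 2 to 4 in local and 6 to 10, 2 to 6 and 9 to 11 in systemic leaves, and for leaf by time 1 to 2, 2 to 2 and 4 to 9 in WT and 4 to 7, 3 to 5 and 4 to 6 in rbohD. Libraries not yet named that moved a count by over 1.5 times were WT local replicate 3 at 8 min (10 to 6 at 8 against 0 min), WT local replicate 2 at 4 min and 3 at 0 min (5 to 3 and 2 at 4 min), WT systemic replicate 2 at 0 min (5 to 3 at 4 min), rbohD systemic replicate 2 at 4 min (3 to 5 at 4 min), and, for leaf by time in WT at 2 min (1 to 2), WT local replicate 2 at 0 min and 3 at 2 min and WT systemic replicate 2 at 4 min.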
